A study of Mus musculus with 15 samples.

Results

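Mouse neural progenitor cells that received a short hairpin RNA (shRNA) plasmid named shLINE_Orf1 were compared with cells that received the control plasmid, shControl, by RNA sequencing. The comparison covers 6 of the 15 libraries of the study, 3 of each plasmid, chosen by the treatment in the sample labels, and all of its genes. Of 34910 genes in the table, 15141 had enough counts to be tested. The other groups of the study, also with 3 libraries each, received shLINE_Orf2, shLINE_MdV_I, or shLINE_Orf1 together with a full-length LINE-1 (shLINE_Orf1+LINE-1). In the labels the full-length element accompanies shLINE_Orf1, and in the design text it accompanies the hairpin against young LINE-1. All groups were wild type cells grown with FGF2, EGF and heparin, the plasmids also carried EGFP, and GFP-positive cells were sorted 3 days after the plasmids were introduced. Separate cultures are not mentioned for the 3 libraries of a group, and p-values therefore measure a spread that may be technical. The labels give no sequence and no other detail of the hairpins, each group rests on 1 hairpin, and LINE-1 RNA was not analysed here, so the extent of its loss in each library is not given.

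LINE-1 elements are retrotransposons, which spread by copying their RNA back into DNA. A full-length element encodes an RNA-binding protein in its first open reading frame and a protein with endonuclease and reverse transcriptase activity in its second. Young LINE-1 families keep copies that can still move, while old ones are mostly broken remnants, and neural progenitors, the dividing precursors of neurons and glia, are a cell type in which LINE-1 RNA is known to be made. An shRNA is processed into a small RNA that lowers RNAs with a matching sequence.

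A pair of libraries stood apart from the others. The share of mitochondrially encoded mRNA was 3.61% in the first shLINE_Orf1 library (shLINE_Orf1 replicate 1) and 2.02% in shControl replicate 2, and 1.36% to 1.80% in the other 4 compared. The same pair lay farthest along the first principal component of all 15 libraries. Of the 6 compared, only shLINE_Orf1 replicate 1 has 12 as the last number of its description in the labels, the others having 1, and what the number stands for is not stated there. Results are given with all 6 libraries and again without this pair. The 6 libraries held between 39204176 and 49350498 gene counts, and each pair of replicates differed by more than counting noise (25.9 to 242 chi-square units per degree of freedom). CPM are counts relative to library size, which was scaled for single genes and unscaled for the marker sums and floors given here. The progenitor markers were present: of 43 listed, 42 were tested and none was under 1 CPM in all 6 libraries. Their summed level was 13465 to 16009 CPM. Blood markers summed to at most 0.466 CPM, and 4 of 7 were at 0 in all 6 libraries. Microglia and macrophage markers summed to 36.7 to 39.4 CPM in shControl and 32.1 to 37.6 CPM in shLINE_Orf1. Endothelial markers summed to 28.8 to 50.5 and 37.9 to 47.9 CPM, fibroblast and mural markers to 53.4 to 69.1 and 36.4 to 68.2 CPM, and ependymal markers to 12.1 to 13.3 and 12.6 to 16.7 CPM. On these unscaled sums the ranges of shControl and shLINE_Orf1 overlapped for each of these lists. On scaled values the ependymal list did not overlap, while the others did. Relative to the shControl mean, its 6 tested genes had mean log2 levels of -0.05, 0.09 and -0.04 in shControl replicates 1 to 3. In shLINE_Orf1 replicates 1 to 3 they were at 0.59, 0.47 and 0.35. None of them was called, and 6 of the 10 listed were under 1 CPM in all 6 libraries. In bulk RNA, fewer cells of a type and less RNA per cell cannot be told apart.

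Cells with shLINE_Orf1 had higher RNA of the small heat shock protein gene Cryab, the vesicle GTPase gene Rab3b, the lysosomal genes Atp6v1b2 and Lamp1, the secretory pathway genes Tmed3 and Sec13 and the proteasome subunit gene Psmb6. They had lower RNA of the linker histone gene Hist1h1c, the matrix gene Papln, the secreted bridging protein gene Mfge8 and 3 others. The test called 21 genes higher (0.139% of those tested) and 6 lower (0.0396%), 27 in all (0.178%), at an adjusted p under 0.05 (edgeR's quasi-likelihood test on all 15 libraries, Benjamini-Hochberg adjustment over all genes). In all 27 the 3 libraries of 1 group lay beyond the 3 of the other, as they did in 9.28% of tested genes (4.88% higher and 4.4% lower). Before adjustment, 808 genes were higher and 788 lower at p under 0.05. The median log2 fold change over all tested genes was -0.0085. Only 6 of the 27 changed by 2-fold or more. Without shLINE_Orf1 replicate 1 and shControl replicate 2, 139 genes were called (0.903% of 15398 tested), 100 higher (0.649%) and 39 lower (0.253%). The 27 were all among them, which is 100% of the shorter list and 19.4% of the longer.

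**Figure D1:**
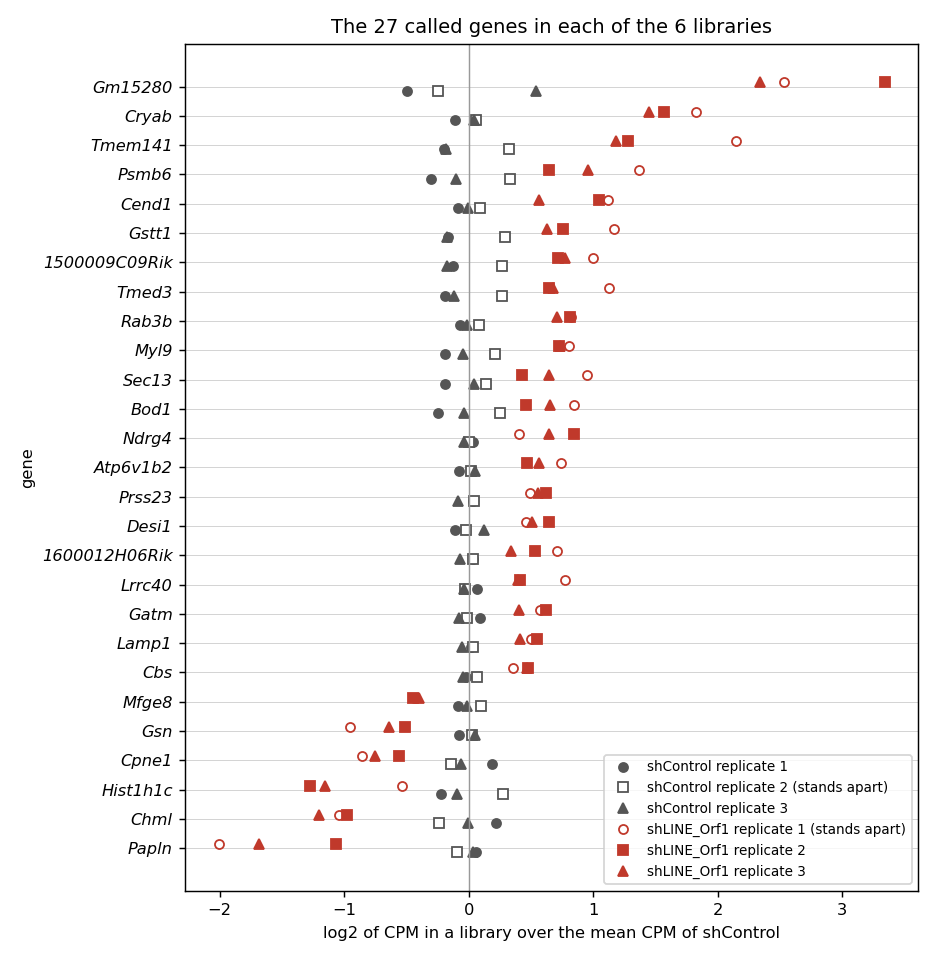
Each of the 27 called genes (rows) in the 6 libraries, as the log2 of its CPM over the mean CPM of the 3 shControl libraries (grey; shLINE_Orf1 in red). Open symbols mark shControl replicate 2 and shLINE_Orf1 replicate 1. In every row the red symbols lie on one side of all grey ones.

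Many of the calls depended on single libraries. Cryab, Rab3b, Gm15280 and Papln stayed called whichever 1 of the 6 libraries was left out. Of the 27 genes, 5 stayed called without shControl replicate 3, 10 without shControl replicate 1, 12 without shLINE_Orf1 replicate 3, 22 without shControl replicate 2, 22 without shLINE_Orf1 replicate 2 and 24 without shLINE_Orf1 replicate 1. When the model held only the 6 libraries compared, and not the other 9 that help to estimate the spread, Cryab alone was called (adjusted p = 0.0407). All 27 genes kept their direction in each of the 16 alternative fits. That is no separate check, since they were chosen in these libraries and their groups do not overlap.

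Cryab encodes alpha B-crystallin, a small heat shock protein that binds unfolding proteins and filaments (chromosome 9, 50751325 to 50756636, GRCm38, plus strand). It was at 18.3, 20.5 and 20.3 CPM in shControl replicates 1 to 3 and at 69.9, 58.3 and 53.9 CPM in shLINE_Orf1 replicates 1 to 3. Every shLINE_Orf1 library was thus above every control, and the controls lay close together. It rose 3.08-fold, with a log2 fold change of 1.62 ± 0.11 (SE; adjusted p = 4.82e-06), and by 1.53 ± 0.11 without the pair of libraries that stood apart. The transcripts Cryab-205 and Cryab-201, both protein coding, held 45.9% and 33.2% of the gene's counts in shControl and 48.4% and 32.3% in shLINE_Orf1. Hspb2, a related gene that overlaps it on the opposite strand, held a mean of 14.7 counts.

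No other heat shock or chaperone gene was called. Of 45 listed, 43 were tested, 27 were positive and Cryab alone was called, with a list median of 0.03 on the log2 scale (-0.0085 over all genes). The 42 others lay between -0.34 and 0.61. Hspb6 and Hspb8, small heat shock proteins of the same family, had log2 fold changes of -0.08 ± 0.12 and -0.03 ± 0.18. Hspa8, the constitutive cytosolic Hsp70, was at 0.23 ± 0.09 (adjusted p = 0.401), and Dnaja4, an Hsp40 co-chaperone, at 0.37 ± 0.12 (adjusted p = 0.342). Without the pair of libraries, Cryab was again the 1 called of 43.

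Rab3b belongs to the Rab3 GTPases, which ride on secretory vesicles and control their fusion (chromosome 4, 108879063 to 108943324, plus strand). Its levels were 235, 262 and 245 CPM in shControl and 437, 434 and 403 CPM in shLINE_Orf1. The groups were far apart compared with their own spread, and the log2 fold change was 0.78 ± 0.09 (adjusted p = 0.00205; 0.80 without the pair). Its main transcript, Rab3b-201, held 73.1% of its counts in shControl and 74.2% in shLINE_Orf1. The other Rab3 genes gave 0.09 ± 0.12 (Rab3a), 0.03 ± 0.17 (Rab3c) and -0.21 ± 0.19 (Rab3d). Of 29 tested genes of Rab3 vesicle exocytosis 15 were positive and Rab3b alone was called, with a median of 0.00070.

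Chml encodes a Rab escort protein, which presents Rab GTPases to the enzyme that attaches their lipid anchor (chromosome 1, 175682237 to 175692901, minus strand). It was at 8.66, 6.31 and 7.42 CPM in shControl and 3.62, 3.78 and 3.25 CPM in shLINE_Orf1. It fell by 1.07 ± 0.19 on the log2 scale (adjusted p = 0.0345), and without the pair it was at -1.20 ± 0.22. It overlaps Opn3 on the same strand, where the assignment of shared reads is an estimate, and Opn3 was at -0.27 ± 0.12 (adjusted p = 0.461).

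Among lysosome genes, Atp6v1b2 and Lamp1 rose. Atp6v1b2 encodes a subunit of the V-ATPase, the proton pump that acidifies lysosomes and vesicles (chromosome 8, 69088646 to 69113711). It was at 139, 149 and 152 CPM in shControl and 245, 202 and 216 CPM in shLINE_Orf1, and rose by 0.59 ± 0.09 on the log2 scale (adjusted p = 0.0132). Lamp1, a major glycoprotein of the lysosomal membrane (chromosome 8, 13159161 to 13175338), was at 482, 487 and 458 against 672, 696 and 633 CPM, and rose by 0.49 ± 0.08 (adjusted p = 0.0194). In both genes the groups were separate and the values without the pair were close, at 0.52 and 0.50. Of 42 V-ATPase and lysosome genes tested 20 were positive, only these 2 were called, and the median was -0.0093. Naglu, a lysosomal enzyme that breaks down heparan sulfate, was at -0.61 (adjusted p = 0.0618) and was called lower without the pair (-0.53 ± 0.10, adjusted p = 0.0167).

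Tmed3 and Sec13 act where proteins leave the endoplasmic reticulum. Tmed3, a cargo receptor of the p24 family (chromosome 9, 89699206 to 89705068), was at 72.7, 99.9 and 76.2 CPM in shControl and 181, 129 and 132 CPM in shLINE_Orf1. Sec13, a subunit of the outer COPII coat that also serves in the nuclear pore (chromosome 6, 113728062 to 113740743), was at 137, 172 and 161 against 303, 211 and 245 CPM. The highest control of each gene was shControl replicate 2 and the highest of all was shLINE_Orf1 replicate 1, the pair that stood apart. Tmed3 rose by 0.83 ± 0.14 (adjusted p = 0.0242) and Sec13 by 0.69 ± 0.12 (adjusted p = 0.0272) on the log2 scale, and by 0.81 ± 0.09 and 0.61 ± 0.09 without that pair. These 2 were called among 48 genes of transport between endoplasmic reticulum and Golgi, of which 29 were positive, with a median of 0.03. Gosr1, a Golgi SNARE, was at 0.35 ± 0.11 (adjusted p = 0.297) and Kdelr3, which returns resident proteins to the endoplasmic reticulum, at 0.54 ± 0.18 (adjusted p = 0.351). Sec61b, a subunit of the channel that takes proteins into the endoplasmic reticulum, was at 0.83 (adjusted p = 0.0926) and was called without the pair (0.88 ± 0.12, adjusted p = 0.00224).

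**Figure D2:**
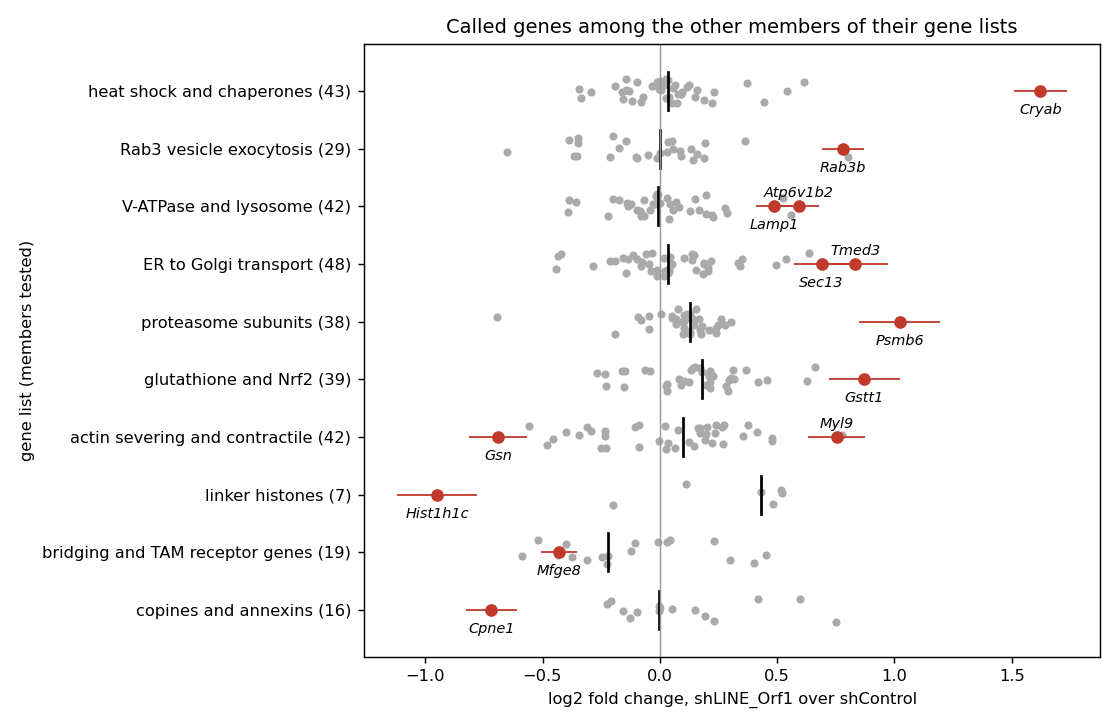
Log2 fold changes, shLINE_Orf1 over shControl, of the tested members of 10 gene lists (rows, number tested in brackets). Red points with SE bars are called genes, grey points are the other members and the black line is the median of the list; Cryab lies at 1.62 while the other heat shock and chaperone genes lie between -0.34 and 0.61, and Hist1h1c lies at -0.95 while the median of the linker histones is 0.43.

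Psmb6 encodes a catalytic subunit of the proteasome, the protease that degrades ubiquitin-tagged proteins (chromosome 11, 70525367 to 70527858, plus strand). Its levels were 175, 271 and 200 CPM in shControl and 556, 336 and 419 CPM in shLINE_Orf1. Here too the highest library of each group belonged to the pair that stood apart, yet the groups did not overlap. It rose 2.03-fold, by 1.02 ± 0.17 on the log2 scale (adjusted p = 0.0242), and by 1.01 ± 0.11 without the pair. Psmb5 and Psmb7, the other standard catalytic subunits, were at 0.13 ± 0.17 and 0.24 ± 0.18. Of 38 subunit genes tested 32 were positive, Psmb6 alone was called, the median was 0.13, and the 37 others lay between -0.69 and 0.30. Without the pair, Psmb10, a catalytic subunit of the immunoproteasome, was called as well, at 0.37 (adjusted p = 0.0450; 0.30 with all libraries). Psme4, which encodes a cap of the proteasome (PA200), was at -0.69 ± 0.19 with all libraries (adjusted p = 0.211) and was called lower without the pair, at -0.76 ± 0.12 (adjusted p = 0.00587).

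The promoters of Psmb6 and Psmb5 are shown because both are catalytic subunits of 1 particle and only Psmb6 was called. Each line gives the 150 bases before the RefSeq start, 5′ to 3′ on the strand of the gene (GRCm38.p6), at chr11:70525207-70525356 (plus) for Psmb6 and chr14:54617996-54618145 (minus) for Psmb5. Capitals mark a match to TGACNNNGC, the core of the antioxidant response element, on either strand.
Psmb6: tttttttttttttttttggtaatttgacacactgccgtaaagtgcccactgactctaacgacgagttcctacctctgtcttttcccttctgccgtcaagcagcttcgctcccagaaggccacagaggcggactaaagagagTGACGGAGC
Psmb5: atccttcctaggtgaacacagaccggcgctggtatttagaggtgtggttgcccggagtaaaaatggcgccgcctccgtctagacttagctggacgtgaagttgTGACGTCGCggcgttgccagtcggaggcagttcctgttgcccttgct
Both hold 1 match, beginning 9 bases before the start in Psmb6 and 47 bases before it in Psmb5, and 12.4% of all 32851 RefSeq promoter windows of 300 bases hold one.

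Among genes of amino acid and glutathione metabolism, Gstt1, Gatm and Cbs rose. Gstt1, a theta-class glutathione transferase that joins glutathione to reactive compounds (chromosome 10), was at 27.3, 37.5 and 27.2 CPM in shControl and 69.0, 51.9 and 47.5 CPM in shLINE_Orf1 (log2 fold change 0.87 ± 0.15, adjusted p = 0.0272). Gatm, the mitochondrial enzyme of the first step of creatine synthesis (chromosome 2), was at 256, 237 and 227 against 357, 368 and 317 CPM (0.53 ± 0.09, adjusted p = 0.0194). Cbs, which condenses homocysteine with serine on the way to cysteine (chromosome 17), was at 58.0, 61.8 and 57.3 against 75.7, 82.0 and 81.5 CPM (0.43 ± 0.08, adjusted p = 0.0354), the smallest fold change of the genes called higher. None of the 3 overlapped between groups. Of 39 tested genes of glutathione and the Nrf2 response 31 were positive and Gstt1 alone was called, with a median of 0.18 (0.12 without the pair). Another theta-class gene, Gstt3, was at 0.66 ± 0.24 (adjusted p = 0.377) and Gstm1 at 0.30 ± 0.09 (adjusted p = 0.303).

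The actin cytoskeleton held a called gene in each direction. Myl9, a regulatory light chain of smooth muscle and non-muscle myosin (chromosome 2, 156775420 to 156781658), was at 14.6, 19.3 and 16.1 CPM in shControl and 29.2, 27.5 and 27.7 CPM in shLINE_Orf1. Its log2 fold change was 0.75 ± 0.12 (adjusted p = 0.0196; 0.84 without the pair). Gsn encodes gelsolin, which severs and caps actin filaments and is also made by oligodendrocytes (chromosome 2). It was at 52.6, 56.5 and 57.4 against 28.6, 38.9 and 35.6 CPM, and fell by 0.69 ± 0.12 (adjusted p = 0.0345; by 0.57 without the pair). Oligodendrocyte lineage genes, a list that holds Gsn, were negative in 19 of 25 (median -0.21, and -0.12 without the pair). Relative to unscaled library size they summed to 4496 to 5174 CPM in shControl and 2796 to 5214 CPM in shLINE_Orf1. Their part in the result was not tested. Of 42 tested genes of actin severing and contraction 26 were positive, with a median of 0.10. Acta2, smooth muscle actin, was at 0.41 ± 0.13 (adjusted p = 0.325) and the actin-binding Cald1 at -0.35 ± 0.09 (adjusted p = 0.162).

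Cend1, Ndrg4 and Bod1 also rose. Cend1, a membrane protein of neuronal cell cycle exit (chromosome 7, 141426446 to 141429491), was at 6.64, 7.48 and 7.02 CPM in shControl and 15.3, 14.6 and 10.4 CPM in shLINE_Orf1, higher by 0.93 ± 0.15 on the log2 scale (adjusted p = 0.0194). Ndrg4, an NDRG-family gene expressed in brain and heart (chromosome 8), was at 53.0, 51.8 and 50.2 against 68.4, 92.7 and 80.5 CPM (0.64 ± 0.10, adjusted p = 0.0203). Bod1, needed for correct chromosome attachment in mitosis (chromosome 11), was at 58.7, 82.8 and 67.8 against 125, 96.0 and 110 CPM (0.66 ± 0.12, adjusted p = 0.0345). For all 3 genes the groups were separate, and for Bod1 the highest control was shControl replicate 2. Cend1 was the 1 gene called of 24 of cell cycle exit and G1 control (12 positive, median -0.03). No gene was called among 62 of G2/M (49 positive, median 0.11) or 56 of G1/S (32 positive, median 0.07).

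Prss23, a secreted serine protease (chromosome 7, 89507783 to 89527187), was at 43.7, 43.9 and 40.1 CPM in shControl and 59.7, 65.3 and 62.6 CPM in shLINE_Orf1, with narrow groups and a log2 fold change of 0.56 ± 0.09 (adjusted p = 0.0194). Desi1, a protease that removes SUMO (chromosome 15), was at 50.4, 53.7 and 59.4 against 75.0, 85.0 and 77.5 CPM (0.54 ± 0.09, adjusted p = 0.0194). It overlaps Xrcc6 on the opposite strand, which was at 0.14 ± 0.09 (adjusted p = 0.537), and whether the counting used strand is not given in the sources used here. Tmem141, a transmembrane protein gene (chromosome 2), was low but rose 3.03-fold, from 2.30, 3.28 and 2.31 CPM to 11.6, 6.39 and 5.97 CPM (1.60 ± 0.24, adjusted p = 0.0154). Its protein-coding transcript Tmem141-205 held 31.3% of its counts in shControl and 46.8% in shLINE_Orf1.

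The 4 other genes called higher are little described. 1500009C09Rik (chromosome 15) was at 7.27 to 9.90 CPM in shControl and 13.5 to 16.4 CPM in shLINE_Orf1, higher by 0.83 ± 0.14 on the log2 scale (adjusted p = 0.0260). Lrrc40, a leucine-rich repeat gene, and 1600012H06Rik had log2 fold changes of 0.53 ± 0.10 and 0.54 ± 0.10 (adjusted p = 0.0372 for each). The latter overlaps Phf10 on the opposite strand, which was at -0.14 ± 0.08 (adjusted p = 0.507). Gm15280 is annotated as an unprocessed pseudogene on chromosome X (31347183 to 31347822), so reads could be shared with copies of like sequence and its counts are uncertain. It was listed at 0.236, 0.281 and 0.483 CPM in shControl and 1.93, 3.38 and 1.69 CPM in shLINE_Orf1 (2.79 ± 0.35, adjusted p = 0.00432).

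Papln fell most among the genes called lower. It encodes papilin, an extracellular matrix protein related to ADAMTS proteases (chromosome 12, 83763634 to 83792382). Its levels were 6.17, 5.53 and 6.05 CPM in shControl and 1.47, 2.83 and 1.84 CPM in shLINE_Orf1, so the highest shLINE_Orf1 library was well below the lowest control. The log2 fold change was -1.53 ± 0.20 (adjusted p = 0.00515) and -1.39 ± 0.21 without the pair. The transcript Papln-202 was assigned 67.6 and 144 counts in shControl replicates 1 and 3 and was listed at 0 in shControl replicate 2 and in all 3 shLINE_Orf1 libraries.

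Mfge8 and Cpne1 act at membranes. Mfge8 is a secreted bridge between phosphatidylserine on dying cells and integrins on cells that engulf them, and astrocytes are a source of it (chromosome 7). It was at 202, 228 and 211 CPM in shControl and 158, 156 and 162 CPM in shLINE_Orf1, and fell by 0.43 ± 0.08 (adjusted p = 0.0354; by 0.38 without the pair), the smallest fall of the 6. Of 19 tested bridging and TAM receptor genes 13 were negative and Mfge8 alone was called, with a median of -0.22 (-0.09 without the pair). Gas6, the ligand of the TAM receptors, was at -0.44 ± 0.11 (adjusted p = 0.162). Cpne1, a copine, which binds membranes in the presence of calcium (chromosome 2, 156071842 to 156111965), was at 48.7, 38.8 and 41.2 against 23.6, 29.2 and 25.5 CPM, with a log2 value of -0.72 ± 0.11 (adjusted p = 0.0176). Of 16 tested copine and annexin genes 8 were negative and Cpne1 alone was called (median -0.0018). Its locus overlaps Rbm12 and Gm28036 on the same strand, where the assignment of shared reads is an estimate. Rbm12 was at -0.40 ± 0.19 (adjusted p = 0.485). Gm28036 held a mean of 713.5 counts over the 6 libraries, against 1547 for Cpne1. The share of counts given to Cpne1-202 was 74.3% in shControl and 59.0% in shLINE_Orf1, and that of Cpne1-203 was 21.4% and 36.8%.

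Hist1h1c encodes the linker histone H1.2, which binds DNA between nucleosomes (chromosome 13, plus strand). It was at 124, 175 and 136 CPM in shControl and 100, 59.9 and 65.4 CPM in shLINE_Orf1. It was high in both libraries of the pair that stood apart, and the groups remained separate. It fell by 0.95 ± 0.17 on the log2 scale (adjusted p = 0.0345), and without the pair it was at -1.06 ± 0.10 (adjusted p = 5.09e-05). No other linker histone gene was called: Hist1h1e was at 0.52 ± 0.28, Hist1h1b at 0.52 ± 0.31, Hist1h1d at 0.48 ± 0.34, Hist1h1a at 0.43 ± 0.56, H1f0 at 0.11 ± 0.09 and H1fx at -0.20 ± 0.13. Without the pair they were at 0.36, 0.21, 0.17, 0.33, 0.06 and 0.07. Of the 7 tested, 5 were positive and 2 negative, with a median of 0.43 (0.17 without the pair). Without shLINE_Orf1 replicate 1 alone, Hist1h1a, Hist1h1b and Hist1h1d were at -0.36, -0.09 and -0.16.

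The core histone gene Hist1h2bc, an H2B gene of the same chromosome 13 cluster, was at 194, 324 and 207 CPM in shControl and 169, 102 and 105 CPM in shLINE_Orf1. Its log2 fold change of -0.95 ± 0.20 missed the threshold with all libraries (adjusted p = 0.0738) and passed it without the pair (-0.96 ± 0.09, adjusted p = 5.09e-05). None of 58 tested core histone genes was called with all libraries. Their median was 0.16 with all libraries and -0.14 without the pair, where Hist1h2bc and Hist3h2a (-0.44, adjusted p = 0.0413) were called lower.

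Promoters of 3 linker histone genes of 1 cluster are shown. Each holds 1 match to each of the boxes searched, and only Hist1h1c among them was called. Each line gives the 150 bases before the RefSeq start on the strand of the gene, at chr13:23738657-23738806 (plus) for Hist1h1c, chr13:23554882-23555031 (plus) for Hist1h1d and chr13:23622559-23622708 (minus) for Hist1h1e. Capitals mark the H1 box (AAACACA) and the CCAAT box, each searched on both strands, which are known elements of linker histone promoters.
Hist1h1c: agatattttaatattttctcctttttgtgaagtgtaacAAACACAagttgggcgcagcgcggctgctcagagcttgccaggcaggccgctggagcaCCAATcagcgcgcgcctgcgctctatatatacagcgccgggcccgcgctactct
Hist1h1d: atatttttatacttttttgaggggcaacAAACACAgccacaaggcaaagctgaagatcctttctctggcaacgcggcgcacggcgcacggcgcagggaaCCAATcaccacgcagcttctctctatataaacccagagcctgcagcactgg
Hist1h1e: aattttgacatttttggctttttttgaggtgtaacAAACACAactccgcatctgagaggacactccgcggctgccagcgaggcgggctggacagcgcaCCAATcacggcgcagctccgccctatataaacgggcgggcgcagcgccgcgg
All 3 hold both boxes at like distances, the H1 box beginning 112, 122 and 115 bases before the start and the CCAAT box 54, 51 and 52 bases before it. Of the other linker histone genes of the cluster, Hist1h1b held 1 H1 box and 3 CCAAT boxes in its window of 300 bases, and Hist1h1a 1 CCAAT box and no match to the H1 box. Over all RefSeq promoter windows, 7.18% hold an H1 box and 37.4% a CCAAT box.

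A promoter window was found for 24 of the 27 called genes, 18 higher and 6 lower, and not for Atp6v1b2, Cryab and Gm15280. A gene was counted where any of its windows held the motif. The core of the heat shock element (GAANNTTC or TTCNNGAA) was in 2 of 18 and 2 of 6, against 17% of all 27025 genes with a window, counted the same way. A CCAAT box was in 8 of 18 and 3 of 6 (41.1% of all genes), and the antioxidant core in 3 of 18 and 1 of 6 (14%). These matches describe letters in a window of 250 bases before and 50 after the start.

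Most of the gene lists that follow gave no call in either direction with all 6 libraries, and the astrocyte and oligodendrocyte lineage lists gave 1 each. Nuclear genes of oxidative phosphorylation were positive in 79 of 82 (median 0.35) and cytosolic ribosomal protein genes in 82 of 82 (0.27). Mitochondrial ribosomal protein genes were positive in 72 of 75 (0.26), and without the pair the 3 medians were 0.27, 0.17 and 0.19. Over all genes tested 48.6% were positive. Separate groups, higher in shLINE_Orf1, were seen in 1, 0 and 2 genes of these lists, and in 4.88% of all genes tested. Their median exonic lengths were 1578, 1776 and 2533 bases, against 4334 bases over all genes. Relative to the shControl mean, the cytosolic list had mean log2 levels of -0.36, 0.43 and -0.07 in shControl replicates 1 to 3. In shLINE_Orf1 replicates 1 to 3 they were 0.79, -0.25 and 0.16. The 12 mitochondrially encoded genes had a median of 0.52 with all libraries and 0.02 without the pair. LINE-1 restriction and heterochromatin genes, with a median exonic length of 6422 bases, were negative in 44 of 61 (median -0.18, and -0.09 without the pair). Genes of the integrated stress and unfolded protein responses were negative in 36 of 54 (-0.08, and -0.03) and nucleolar genes in 47 of 74 (-0.04, and -0.07). Immediate early genes were negative in 25 of 35 (-0.09) with all libraries, and positive in 21 of 35 (0.06) without the pair. Interferon response genes were split, 29 positive and 28 negative (median 0.0011; -0.0093 without the pair), p53 targets were positive in 25 of 41 (0.03; 0.03), and cholesterol synthesis genes in 24 of 34 (0.04; 0.03). Neural progenitor genes were positive in 20 of 42 (median -0.02; 0.03 without the pair), with Dll1, a Notch ligand, at -0.56 ± 0.16 (adjusted p = 0.211). Neuronal genes were negative in 27 of 41 (-0.10), and without the pair 20 of 41 were positive (-0.03). Astrocyte genes were positive in 21 of 34 (0.10; 0.14 without the pair), and Mfge8 was the 1 called. Oligodendrocyte lineage genes were negative in 19 of 25 (-0.21; -0.12 without the pair), and Gsn was the 1 called.

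Leaving out the pair brought in 112 genes that missed the threshold with all libraries. Among those with a log2 CPM of 3 or more on average and separate groups in the 4 libraries left, the smallest p-values of genes called higher belonged to Mcrip2, Mavs, Cpox and Sec61b. Mavs is the mitochondrial adaptor of RNA sensing: it was at 18.2, 16.5 and 20.2 CPM in shControl and 22.2, 33.2 and 31.0 CPM in shLINE_Orf1, and its log2 value of 0.65 with all libraries (adjusted p = 0.0680) became 0.73 ± 0.10 without the pair (adjusted p = 0.000822). It was the 1 gene called among 24 of RNA and DNA sensing, beside 0.903% of all genes tested without the pair. Cpox, an enzyme of heme synthesis, was at 0.42 (adjusted p = 0.377) and 0.65 ± 0.08 (adjusted p = 0.000822), since shLINE_Orf1 replicate 1 was at 38.0 CPM, below all 3 controls, while replicates 2 and 3 were at 67.9 and 58.2 CPM. Mcrip2, which is linked to stress granules, was at 0.98 (adjusted p = 0.0680) and 0.93 ± 0.11 (adjusted p = 0.000294).

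Among genes called lower without the pair, besides Hist1h2bc and Psme4, were the histone H2A deubiquitinase Mysm1, at -0.89 ± 0.14 (adjusted p = 0.00404; -0.45 with all libraries), and the deubiquitinase Otud4, at -0.86 ± 0.15 (adjusted p = 0.00864; -0.85). Gabra2, a GABA-A receptor subunit, was at 62.0, 42.3 and 44.8 CPM in shControl and 30.6, 26.7 and 24.4 CPM in shLINE_Orf1, with separate groups in all 6 libraries. Its log2 value was -0.87 ± 0.18 with all libraries (adjusted p = 0.0767) and -1.07 ± 0.21 without the pair (adjusted p = 0.0298). The axon guidance receptor Robo2 was at -0.67 ± 0.13 without the pair (adjusted p = 0.0177), the integrin subunit Itga4 at -0.72 ± 0.14 (adjusted p = 0.0177), and the spliceosome gene Snrpa1 at -0.44 ± 0.08 (adjusted p = 0.0167). For Robo2, Itga4, Mysm1 and Psme4 shControl replicate 2 lay within the range of the shLINE_Orf1 libraries.

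Calls without the pair also reached other lists, with 1 to 3 genes each. Over all genes tested without the pair, 0.649% were called higher and 0.253% lower. In nuclear oxidative phosphorylation the cytochrome c oxidase subunit genes Cox4i1 and Cox6b2 were called, 2 of 82, at 0.75 (adjusted p = 0.00285) and 0.77 (adjusted p = 0.0167). In the interferon response 3 of 57 were called: Ifitm2, which restricts virus entry, at 0.48, Tapbp, which loads peptides onto MHC class I, at 0.59, and Psmb10. The metallothionein genes Mt2 and Mt3, listed with astrocyte genes, were at 0.41 and 0.52, the stress-responsive cytokine Gdf15, a p53 target, at 0.70, the Notch-modifying enzyme Lfng at 0.34 and the axon scaffold gene Ank3 at -0.44. Prim2, a primase subunit of DNA replication, was the 1 called of 56 G1/S genes, at 0.41 (adjusted p = 0.0447), and the lactate dehydrogenase gene Ldhb the 1 called of 42 of glycolysis and hypoxia, at 0.54 (adjusted p = 0.0199). With all 6 libraries none of these genes was called.

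**Figure D3:**
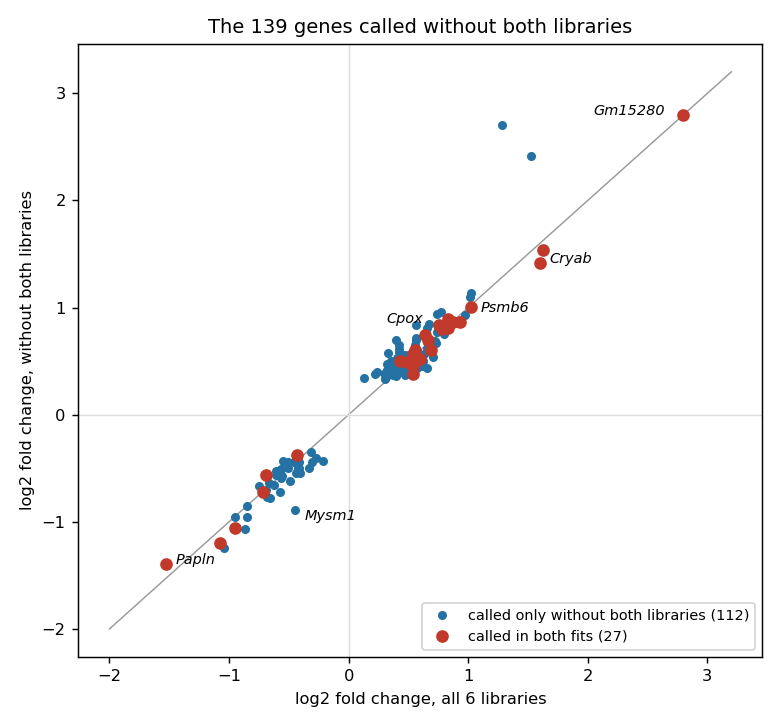
Log2 fold changes of the 139 genes called without shLINE_Orf1 replicate 1 and shControl replicate 2: with all 6 libraries on the x axis, without the pair on the y axis, and the line of equal values. Red points are the 27 genes called in both fits; all 139 have the same sign on both axes.

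Log2 fold changes were related to the length of the genes. Called genes had a median exonic length of 2847 bases when higher and 4600 bases when lower, and 3105 and 8096 bases without the pair, against 4334 bases over all genes tested. Across the 15141 genes, which are not independent replicates, the Spearman correlation of log2 fold change with exonic length was -0.34, and -0.31 without the pair. Single libraries showed it too: deviations from the group mean gave 0.39, -0.47 and 0.19 for shControl replicates 1 to 3 and -0.38, 0.37 and 0.21 for shLINE_Orf1 replicates 1 to 3. The part of length in the calls was not tested.

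**Figure D4:**
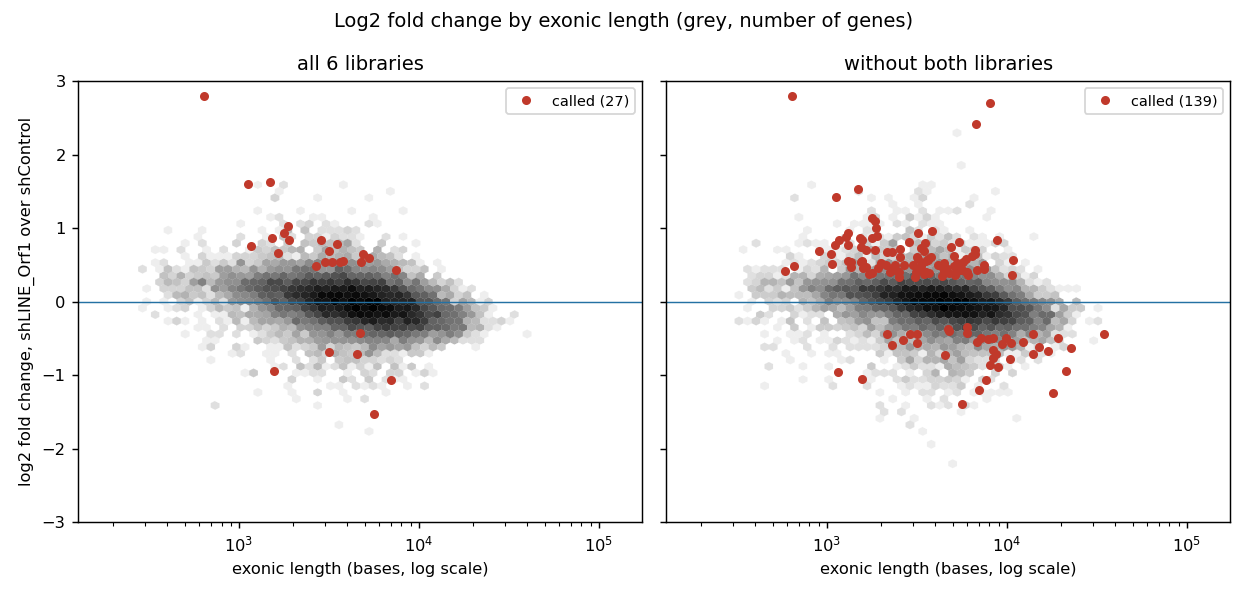
Log2 fold change, shLINE_Orf1 over shControl (y axis), against exonic length on a log scale (x axis), with all 6 libraries (left) and without the pair (right). Darker grey means more genes and red points are called genes; those called lower without the pair have a median length of 8096 bases, and those called higher 3105 bases.

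The 27 genes were then followed in the other hairpin groups, in the same model. They were chosen from a contrast that shares the shLINE_Orf1 libraries with these comparisons. Against shLINE_Orf2, edgeR's quasi-likelihood test called none of the 27 and 0 of 15141 genes (0%), with 1729 genes at unadjusted p under 0.05, 10 of them among the 27, and DESeq2 and limma-voom called 132 and 840 genes. Against shLINE_MdV_I it called 104 genes (0.687%), 5 of the 27 among them, and 7 of the 27 without the pair, Prss23 and Ndrg4 being the 2 added. Between shLINE_Orf1+LINE-1 and shLINE_Orf1 it called 0 genes (0%), with 1680 at unadjusted p under 0.05, 8 of them among the 27, and DESeq2 and limma-voom called 20 and 397. Without the pair, 24 genes were called against shLINE_Orf2 (0.156%), Cryab alone of the 27, 159 against shLINE_MdV_I (1.03%) and 0 after adding LINE-1 (0%), with 956 at unadjusted p under 0.05 there (edgeR in each case).

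Cryab was highest with shLINE_Orf1. Its level was 60.7 ± 8.3 CPM there (SD, n = 3), 56.0 ± 1.6 with shLINE_Orf1+LINE-1, 38.4 ± 2.1 with shLINE_Orf2, 31.6 ± 3.3 with shLINE_MdV_I and 19.7 ± 1.2 with shControl. The first and second in this order did not differ beyond their spread (log2 fold change after adding LINE-1 -0.12 ± 0.11, adjusted p = 0.585; 0.0067 without the pair). It was above shLINE_MdV_I by 0.94 ± 0.11 (adjusted p = 0.00447). Above shLINE_Orf2 it was by 0.66 ± 0.11, which missed the threshold with all libraries (adjusted p = 0.0596) and passed it without the pair (0.54, adjusted p = 0.0232).

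Myl9 and Cpne1 also differed from shLINE_MdV_I. Myl9 was at 28.1 ± 0.9 CPM with shLINE_Orf1 and 30.2 ± 0.8 with shLINE_Orf1+LINE-1, but at 20.4 ± 1.5 with shLINE_Orf2 and at 16.7 ± 2.3 with shLINE_MdV_I, against 16.7 ± 2.4 with shControl. The difference from shLINE_MdV_I was 0.75 (adjusted p = 0.0115). Cpne1 was at 26.1 ± 2.8 CPM with shLINE_Orf1 and 39.9 CPM with shLINE_MdV_I, a difference of -0.61 (adjusted p = 0.0178), and Gm15280 at 2.33 and 0.347 CPM, a difference of 2.74 (adjusted p = 0.00447). Hist1h1c differed in the other direction: at 75.2 CPM with shLINE_Orf1 and 39.6 CPM with shLINE_MdV_I, it was lowest in the latter, by 0.93 (adjusted p = 0.0224), and at 56.3 CPM with shLINE_Orf2 and 71.2 CPM with shLINE_Orf1+LINE-1.

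Mfge8 and Rab3b lay closer together among the hairpin groups, while Papln and Prss23 were spread more widely. Mfge8 was at 158 to 161 CPM in the 4 hairpin groups and 214 CPM in shControl. Rab3b was at 425 CPM with shLINE_Orf1, 434 with shLINE_Orf1+LINE-1, 375 with shLINE_Orf2 and 385 with shLINE_MdV_I, against 248 CPM in shControl. Its difference between shLINE_Orf1 and shLINE_Orf2 was 0.18 ± 0.09 (adjusted p = 0.436). Psmb6 was at 437 CPM with shLINE_Orf1 and at 357, 360 and 375 CPM in shLINE_Orf2, shLINE_MdV_I and shLINE_Orf1+LINE-1, against 215 CPM in shControl. Its log2 difference was 0.29 from shLINE_Orf2, 0.28 from shLINE_MdV_I and -0.22 after adding LINE-1. Without the pair these values were 0.07, 0.06 and 0.00045. Papln was at 2.05 CPM with shLINE_Orf1 and 3.54, 3.34 and 3.02 CPM in the same 3 groups, against 5.92 CPM in shControl, and its rise with added LINE-1 was 0.56 with an adjusted p of 0.422. Prss23 was at 82.3 CPM with shLINE_MdV_I and at 62.5 CPM with shLINE_Orf1, a difference of -0.40 that missed the threshold with all libraries (adjusted p = 0.0538) and passed it without the pair (-0.37, adjusted p = 0.035). Its level was 49.5 CPM with shLINE_Orf2, 64.2 CPM with shLINE_Orf1+LINE-1 and 42.5 CPM with shControl. Since every comparison with shControl uses the same 3 control libraries, a level shared by the hairpin groups says nothing of how those controls varied.

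**Figure D5:**
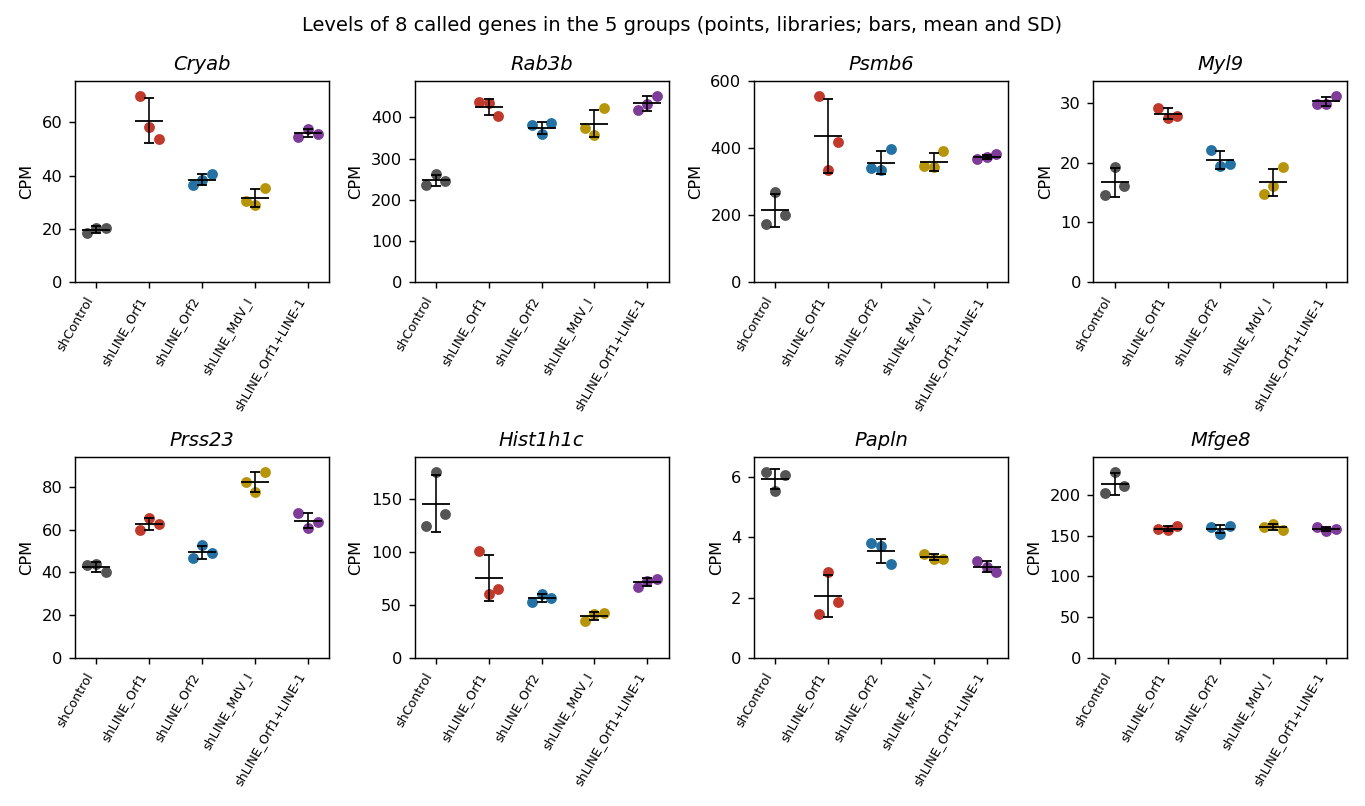
Levels in CPM (y axes, starting at 0) of 8 called genes in the 5 groups: points are single libraries, bars the mean and SD of 3. Cryab falls from 60.7 CPM with shLINE_Orf1 to 31.6 CPM with shLINE_MdV_I and 19.7 CPM with shControl, while Mfge8 lies between 158 and 161 CPM in all 4 hairpin groups.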

How the data were processed

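For each transcript the authors deposited an expected count, the number of reads RSEM estimates for it, in every library. The submitters' processing notes name cutadapt, RSEM and mm10. Not given in the sources used here are versions, settings and use of strand. RNA was extracted with TRIZOL and libraries followed what the labels write as SMRT-seq2. A second deposited table, of a mixed model, was not used here.

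Of 111462 transcripts, 110115 matched a gene of GENCODE M21 (GRCm38). Their counts were summed to 34910 genes and rounded. The 1347 others, with 0.595% to 0.650% of counts, were left out. Genes were filtered with filterByExpr (minimum count 10) and scaled with TMM. edgeR's robust quasi-likelihood method was run once on all 15 libraries with the 5 groups as terms (common biological coefficient of variation 0.158), and p-values were adjusted over all 15141 genes (Benjamini-Hochberg). A fold change is given on the log2 scale with its SE, the log2 fold change over the square root of F. Data were also simulated with the spread of this comparison (14994 genes), with changes placed only in genes above a minimum level. Of genes changed 1.5-fold, 2-fold and 3-fold, 42%, 92% and 98% were called, with 0.0676% of unchanged genes. The simulated libraries varied independently, with none standing apart and no relation to gene length, so these shares may not hold for the real ones. CPM values of single genes use TMM-scaled library sizes, and summed CPM of lists use unscaled library sizes.

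Named are every called gene, up to 15 genes per direction with the smallest p without the pair of libraries, leading members of the 37 gene lists, and paralogs. The comparison, these rules and the lists were chosen with earlier results of these data known. Lists are described by counts and medians only. Promoters come from RefSeq (GRCm38.p6). Alternatives were other scaling (RLE, library size only), other filters (none, or 50 counts in 3 libraries), other tests (DESeq2, and limma-voom weighted by library quality), a fit of the 2 groups alone, a block for replicate number, a covariate for the last number in a library's description (1 or 12), and omissions of libraries. Tools were R 4.3.3, edgeR 4.0.16, limma 3.58.1, DESeq2 1.42.0, statmod 1.5.0, Python 3.11.15, pandas 2.3.3, numpy 2.4.6 and matplotlib 3.10.9.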

Additional observations from a re-analysis of the deposited data

How the results depend on the processing

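The number of genes called moved with the method and with the libraries used. Against 21 higher and 6 lower in the main analysis, DESeq2 gave 149 and 66, limma-voom with quality weights 306 and 307, and the fit of the compared groups only 1 and 0. Without the pair of libraries that stood apart 100 and 39 were called. Leaving out single libraries gave between 4 and 34 higher and between 1 and 8 lower. RLE scaling, library size only, both filters and the covariate gave counts within 1.5 times. The 27 genes were all among the calls of DESeq2, limma-voom, RLE scaling and the omission of the pair. They passed the threshold in 297 of 432 values. Their direction was kept in 432 of 432, which their separate groups made nearly certain beforehand. With the replicate block 3 genes were higher and 1 lower. Deviations from the group mean correlated at -0.12, -0.27 and 0.18 between same-numbered libraries. Between shControl replicate 2 and shLINE_Orf1 replicate 1, the pair that stood apart, they correlated at 0.30. With 3 libraries a group, such values cannot tell whether same-numbered libraries were prepared together, and the labels do not say. Of the 27 genes, 0 were called against shLINE_Orf2, but 1 with no filter, 7 with DESeq2, 9 with limma-voom and 1 without the pair, and 0 to 1 when single libraries were left out. Against shLINE_MdV_I, 5 became 13 with DESeq2, 13 with limma-voom and 15 with the covariate. After adding LINE-1, 0 became 1 with DESeq2 and 4 with limma-voom. Signs turned only in genes that were not called: the Cryab difference after adding LINE-1 (0.034 with limma-voom, 0.0067 without the pair), Hspb8 (0.017 without the pair), Rab3c (-0.049 with library size only, -0.035 with limma-voom, -0.10 with the covariate, -0.10 without the pair) Hist1h1d (-0.012 with limma-voom) and H1fx (0.070 without the pair). With single libraries left out, values ranged from -0.18 to 0.0018 for Hspb6, -0.14 to 0.12 for Hspb8, -0.15 to 0.22 for Rab3c, -0.065 to 0.35 for Psmb5, -0.055 to 0.42 for Psmb7, -0.36 to 1.12 for Hist1h1a, -0.086 to 0.82 for Hist1h1b and -0.16 to 0.81 for Hist1h1d. The cause was not tested in any of these. The median log2 fold change of all genes was -0.08 with library size only. With the spread of all 15 libraries and 3 libraries a group, 1.5-fold changes were mostly missed in simulated data.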
